A study of Mus musculus with 12 samples.

Results

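The basement membrane genes described here are 10 chains and linkers: the laminin α chains Lama2, Lama4 and Lama5, the laminin β chains Lamb1 and Lamb2, the laminin γ chain Lamc1, the collagen IV chains Col4a1 and Col4a2, and the nidogens Nid1 and Nid2. They were found by gene symbol among the 16836 genes named in the deposited tables. Where a symbol had more than 1 assembled entry at a stage, the entry with status OK and the largest sum of both genotypes stood for the gene. Transcript levels were measured by RNA-seq in H2K mouse myogenic progenitors, cells that can be grown continuously while γ-interferon keeps a conditional viral T antigen on and that form myotubes when it is withdrawn. Emerin-null progenitors lack emerin, a protein of the inner nuclear membrane, and were compared with wildtype progenitors in 12 samples, 1 sample of each genotype at each of 6 stages. Proliferating and day 0 cells of both genotypes were in growth medium with 20% fetal bovine serum and 20 units/ml γ-interferon. Cells of both genotypes from day 1 to day 4 were in differentiation medium with 5% horse serum. Each genotype is a single cell line, and each table gives 1 value per genotype and stage, which the study made from 3 plates and in which the plates cannot be seen. A difference at a single stage therefore has no replicate error here and carries no test, and differences between the lines and effects of emerin cannot be told apart.

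Levels are given as FPKM, fragments scaled to transcript length and library size, a unit in which genes of different length can be set side by side within a table. The transcript of Emd, the gene for emerin, was listed at 0.810, 0.0859, 0, 3.10, 0.0421 and 0.0735 FPKM in emerin-null progenitors, in order from proliferating cells to day 4, against 14.9, 62.1, 50.9, 13.6, 29.6 and 31.8 FPKM in wildtype progenitors. Emd was thus lower in the emerin-null sample at every stage. Of 9 myogenic markers all 9 reached 1 FPKM in some sample, with a summed level of 1265 to 3244 FPKM in emerin-null and 1488 to 3247 FPKM in wildtype progenitors, Des being without a value on day 4 and Myh3 having one on day 0 alone. The endothelial list, 7 genes, summed to between 2.65 and 6.64 FPKM in emerin-null and between 1.52 and 5.67 FPKM in wildtype progenitors, with Emcn and Tie1 not listed in any table. Of the macrophage list only Cd68 reached 1 FPKM. Smooth muscle and pericyte markers reached 1 FPKM for 5 of 8 genes, led by Acta2 and Tagln, which myoblasts also express, and summed to between 901 and 2132 FPKM in emerin-null and between 888 and 2610 FPKM in wildtype progenitors, while Myh11 and Cnn1 stayed under 1 FPKM. The tables hold no read counts, so sequencing depth is unknown.

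A basement membrane is a thin sheet of matrix that encloses each muscle fibre and the satellite cells beside it. Laminins are trimers of 1 α, 1 β and 1 γ chain, secreted together, which polymerise at the cell surface and bind integrins and dystroglycan. Collagen IV trimers, most often of α1 and α2 chains, form a second covalent network, and nidogens join the laminin and collagen IV networks. In adult muscle the main laminin carries the α2 chain, whose loss causes a congenital muscular dystrophy, while the α4 and α5 chains are known from embryonic muscle, vessels and the neuromuscular junction, where the β2 chain is also concentrated.

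The collagen IV genes lie head to head on chromosome 8. In the GENCODE M21 annotation of GRCm38, the build that the deposited coordinates use under the name mm10, Col4a1 (ENSMUSG00000031502.11) runs from 11312826 down to 11198423 on the minus strand. Col4a2 (ENSMUSG00000031503.13) runs from 11312805 to 11449287 on the plus strand, so that the first 22 bases of the genes overlap on opposite strands. The RefSeq promoter windows (GRCm38.p6) of both genes share 78 bases, chr8:11312777-11312854. The stretch is shown on the plus strand because both chains start inside it and because it makes the locus of the tables a joint one. The 22 bases in capitals belong to the annotated first exons of both genes:
Col4a1/Col4a2 shared start: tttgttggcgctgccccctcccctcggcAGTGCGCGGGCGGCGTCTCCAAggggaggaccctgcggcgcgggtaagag
The capitals hold 1 GC box (GGGCGG, searched on both strands), and the 78 bases hold no CCAAT, no TATAAA and no CAGCTG, the E-box letters bound by myogenic bHLH factors. Promoter windows of 300 bases were at hand for 7 of the 10 genes. GGGCGG was present in those of Lama2, Lama5, Lamb1, Col4a1, Col4a2 and Nid1 and not in that of Lamb2, against 35.7% of all 32851 windows. CCAAT was present in those of Lamb1, Col4a1, Col4a2 and Nid1, against 37.4% of all windows. None of the 7 held TATAAA, against 13.6% of all windows, or CAGCTG, against 16.3%. The GC content was 74.0% in the Col4a1 window and 73.7% in the Col4a2 window, and 44.0% in that of Lamb2, with a median of 52.7% over all windows. A match here is a string of letters, not a measured site.

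The joint collagen IV locus is 1 of several cases in which the tables cannot separate a gene from its neighbour. Reads were assembled into loci separately at each stage, and each assembled gene of a locus was listed under every symbol of that locus. Col4a1 and Col4a2 thus carried the same pair of entries at all 6 stages. Lamb1 (chr12:31265234-31329644, plus strand) shared its locus from day 0 to day 4 with Dld, a mitochondrial dehydrogenase subunit 1632 bases downstream. Lamb2 (chr9:108479736-108490530, plus strand) shared its locus at all 5 stages that list it with Usp19, a deubiquitinase 71 bases downstream, and had no entry in proliferating cells. Nid2 (chr14:19751265-19811787, plus strand) shared its locus at all stages with 2700060E02Rik, an older symbol of Rtraf, whose 3′ end overlaps that of Nid2 by 437 bases. Lama5 (chr2:180176373-180225859, minus strand) shared its locus with Adrm1, a proteasome ubiquitin receptor 86 bases away, at days 0, 1, 3 and 4. Lama2 (chr10:26980036-27619758, minus strand), Lama4 (chr10:38965515-39110188, plus strand), Lamc1 (chr1:153218922-153332786, minus strand) and Nid1 (chr13:13437551-13512269, plus strand) were alone at every stage.

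Among the members above 1 FPKM, collagen IV transcript had the widest gap between the genotypes, late in differentiation. Its level was 78.4, 56.5, 51.0, 44.1, 31.2 and 36.5 FPKM in emerin-null progenitors, in order from proliferating cells to day 4, and 58.3, 54.1, 51.0, 22.2, 10.2 and 8.19 FPKM in wildtype progenitors. The genotypes were at most 1.04-fold apart on days 0 and 1. Emerin-null values were higher in proliferating cells and on days 2, 3 and 4, by 1.34-, 1.98-, 3.03- and 4.41-fold in that order. The day 4 level was 2.15-fold below the proliferating level in emerin-null progenitors and 7.12-fold below it in wildtype progenitors, a comparison between separately made tables that carries no test. The smaller entry of the locus held 56.8, 40.2, 32.0, 30.9, 19.3 and 20.8 FPKM in emerin-null and 37.9, 35.7, 30.2, 14.4, 6.49 and 5.19 FPKM in wildtype progenitors. Its log2 ratios of emerin-null to wildtype were 0.58, 0.17, 0.08, 1.09, 1.56 and 1.98 in the same order. Both entries therefore showed the same course, and which of them is Col4a1 and which Col4a2 cannot be told from the tables.

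**Figure D1:**
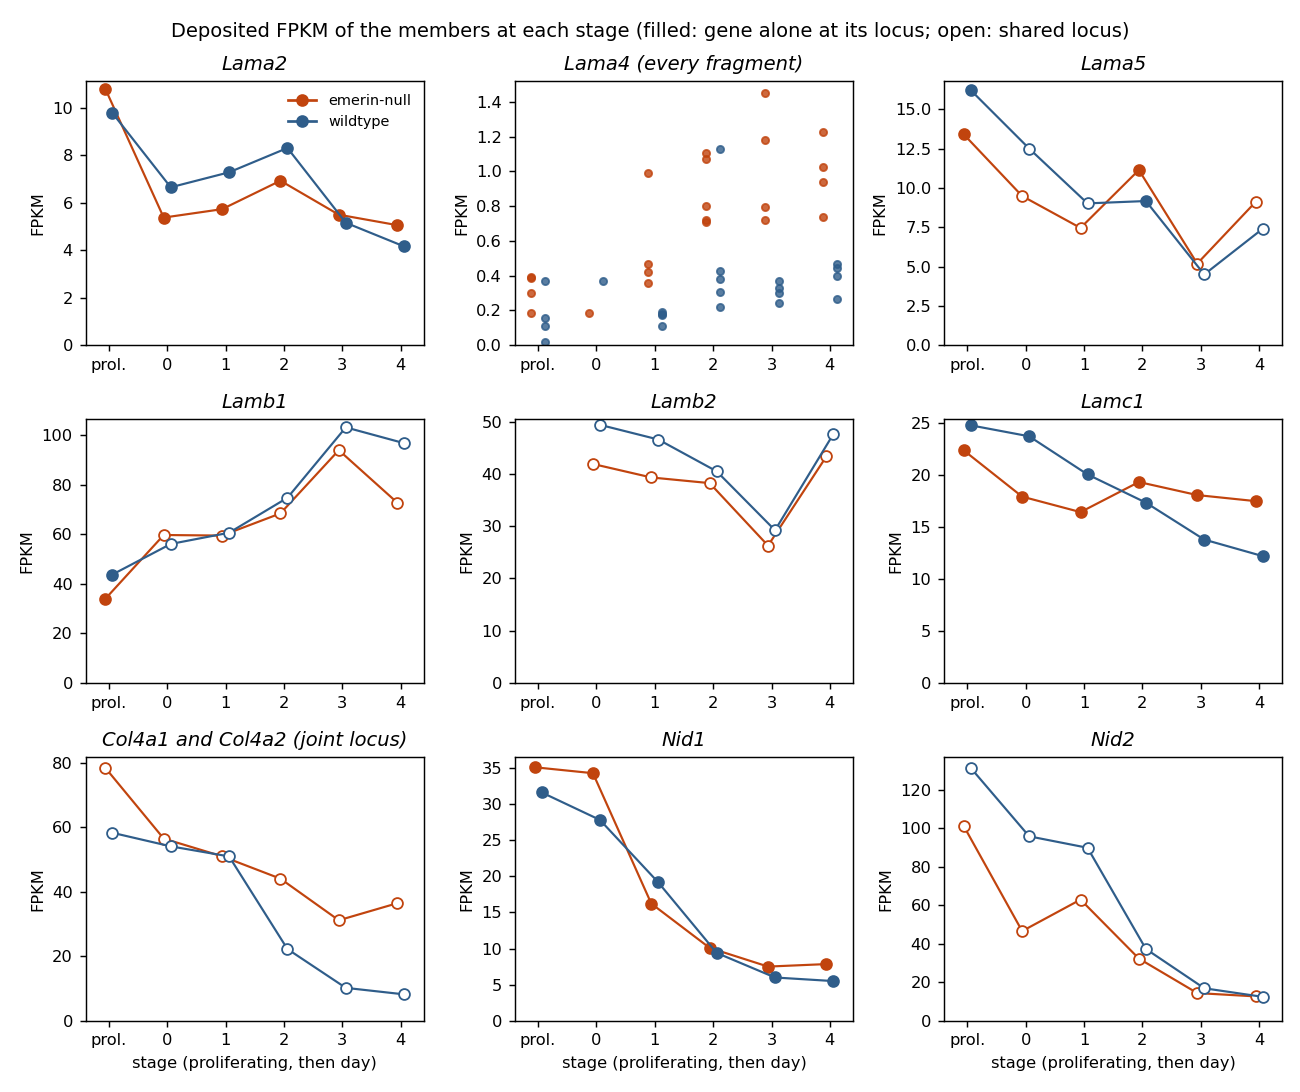
Deposited FPKM (y axis, from 0) against stage (x axis, proliferating cells then days 0 to 4) for emerin-null (red) and wildtype (blue) progenitors, 1 value per genotype and stage; filled points are genes alone at their locus, open points shared loci, and the Lama4 panel shows every usable fragment. Wildtype collagen IV ends at 8.19 FPKM and emerin-null collagen IV at 36.5 FPKM, while the curves of Lamc1 cross between day 1 and day 2.

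The fibrillar collagens of the fibroblast marker list were also higher in emerin-null cells on the last 3 days. The summed level of the 7 fibroblast markers was 170.3, 194 and 209 FPKM in emerin-null progenitors at days 2, 3 and 4, against 119, 77.3 and 59.1 FPKM in wildtype progenitors. In proliferating cells and on days 0 and 1 it was 494, 348 and 288 FPKM in emerin-null and 493, 522 and 399.6 FPKM in wildtype progenitors, so that it was lower in emerin-null cells on the days when collagen IV was level. Nearly all of the sum came from Col1a1 and Col1a2, which muscle cells in culture also express. Dcn was lower in emerin-null cells on each of days 2, 3 and 4, and Pdgfra on days 2 and 4. They reached at most 1.41 and 0.841 FPKM in emerin-null and 2.43 and 2.17 FPKM in wildtype progenitors, Thy1 stayed under 1 FPKM in both lines, and Lum and Tcf21 were not listed. Of the pericyte markers, Cspg4 was higher in emerin-null cells at all 6 stages, with 3.58 FPKM in emerin-null and 0.338 FPKM in wildtype progenitors on day 4, and so was Rgs5, at no more than 1.42 FPKM. Pdgfrb was at 4.71 FPKM in emerin-null and 1.94 FPKM in wildtype progenitors on day 4, and Tagln at 30.3 and 15.3 FPKM, both higher in emerin-null cells from day 2 on. Acta2, by far the most abundant of that list, went the other way on days 0 to 4, with 1246 FPKM in emerin-null and 1511 FPKM in wildtype progenitors on day 3. On day 4 it was at 862 and 871 FPKM. Cnn1 was lower in emerin-null cells wherever it was listed, and the summed list was lower on days 0 to 3. Among the myogenic markers, the satellite cell factor Pax7 was at 5.41 FPKM in emerin-null and 0.422 FPKM in wildtype progenitors on day 4. Myf5 was at 7.58 and 2.21 FPKM, and both were higher in emerin-null cells at all 6 stages. Ckm, the creatine kinase of mature muscle, was lower at all 6. Myod1, Myog, Cdh15, Chrna1 and Des were higher in emerin-null cells at some stages and lower at others. On day 4 Myog was at 564 FPKM in emerin-null and 468 FPKM in wildtype progenitors, Myod1 at 123 and 108 FPKM, and Chrna1 at 787 and 909 FPKM. Myh3, listed on day 0 alone, was at 175 FPKM in emerin-null and 378 FPKM in wildtype progenitors. The part of other cells, or of cells at another step of differentiation, in the collagen IV difference was not tested, and more collagen IV RNA per cell and more cells that make it cannot be told apart in these samples.

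The transcript of the laminin γ1 chain, which is shared by nearly all laminins of muscle, was lower in emerin-null progenitors early in differentiation. Late in differentiation its larger entry was higher and a smaller entry, listed on days 3 and 4, was lower. Lamc1 was at 22.4, 17.9, 16.4, 19.3, 18.1 and 17.5 FPKM in emerin-null progenitors, in order from proliferating cells to day 4, and at 24.8, 23.7, 20.1, 17.3, 13.8 and 12.2 FPKM in wildtype progenitors. Emerin-null values were below wildtype at the first 3 stages, by 1.11-, 1.32- and 1.22-fold, and above it at the last 3, by 1.11-, 1.31- and 1.43-fold. The smaller Lamc1 entry of days 3 and 4 was at 5.29 and 4.99 FPKM in emerin-null and 6.23 and 5.86 FPKM in wildtype progenitors. The direction on those days thus differs between the entries, and the values above are those of the larger one. Across the tables the day 4 level was 1.28-fold below the proliferating level in emerin-null and 2.03-fold below it in wildtype progenitors.

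Lama2 and Lama5 were at most 1.31-fold apart between the genotypes. Lama2, the chain of the adult muscle laminin, was at 10.8, 5.38, 5.74, 6.94, 5.50 and 5.06 FPKM in emerin-null and 9.79, 6.66, 7.29, 8.31, 5.16 and 4.16 FPKM in wildtype progenitors. Emerin-null values were lower at days 0 to 2 and higher at the other stages, and 1.27-fold was the widest gap. Lama5 was at 13.4, 9.49, 7.46, 11.1, 5.19 and 9.11 FPKM in emerin-null and 16.2, 12.5, 9.02, 9.17, 4.50 and 7.40 FPKM in wildtype progenitors. It was lower in emerin-null cells at the first 3 stages and higher at the last 3, as Lamc1 was. In the tables where Lama5 was alone, it was 1.21-fold lower in emerin-null cells while they proliferated and 1.21-fold higher at day 2. Adrm1, where alone, was at 13.0 and 22.7 FPKM in emerin-null and 14.5 and 26.3 FPKM in wildtype progenitors at those stages. On days 0 and 1 the joint locus also held a smaller entry, at 3.85 and 3.43 FPKM in emerin-null and 4.94 and 4.51 FPKM in wildtype progenitors. Which entry is Lama5 and which Adrm1 cannot be told.

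Lama4 was the least expressed member, and it was assembled in pieces rather than as a whole gene. Its chosen entry, a different piece at each stage, was at 0.394, 0.188, 0.989, 1.07, 1.45 and 1.23 FPKM in emerin-null and 0.159, 0.371, 0.178, 1.13, 0.244 and 0.465 FPKM in wildtype progenitors. Its mean over the 12 values was 0.655 FPKM, under the minimum of 1 FPKM set for the test across genes, so it was not tested. In order from proliferating cells to day 4, emerin-null values were the higher in 3 of 4, 0 of 1, 4 of 4, 4 of 5, 4 of 4 and 4 of 4 usable fragments. The median fragment was at 0.983 FPKM in emerin-null and 0.420 FPKM in wildtype progenitors at day 4. The fragments belong to 1 gene in 1 pair of samples per stage and are not replicates. With no filter on low values the mean log2 ratio of the chosen entries was 0.92 (SE 0.40, limma adjusted p = 0.148 over 11397 features).

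The β chains differed little in the entries that the rule chose, and both rest on shared loci. Lamb2, the synaptic β chain, was at 41.9, 39.3, 38.2, 26.3 and 43.3 FPKM in emerin-null progenitors, in order from day 0 to day 4, and at 49.4, 46.6, 40.5, 29.2 and 47.6 FPKM in wildtype progenitors. Emerin-null values were the lower at all 5 stages, by 1.06- to 1.18-fold. On day 2 the locus also held a smaller entry, at 4.89 FPKM in emerin-null and 6.75 FPKM in wildtype progenitors, a wider gap. Which entry is Lamb2 and which Usp19 cannot be told. Usp19 alone, in proliferating cells, was at 21.5 FPKM in emerin-null and 25.3 FPKM in wildtype progenitors, also lower in emerin-null cells, and its part in the Lamb2 entry was not tested.

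Lamb1, the widely expressed β chain, was alone only in proliferating cells, at 34.0 FPKM in emerin-null and 43.7 FPKM in wildtype progenitors. The larger entry of its later joint locus was at 59.7, 59.5, 68.4, 93.9 and 72.8 FPKM in emerin-null and 56.1, 60.6, 74.7, 103 and 96.7 FPKM in wildtype progenitors, in order from day 0 to day 4. The smaller entry was at 26.7, 17.1, 10.5, 13.0 and 10.6 FPKM in emerin-null and 24.6, 18.8, 9.71, 10.6 and 6.67 FPKM in wildtype progenitors. Dld alone, in proliferating cells, was at 56.0 FPKM in emerin-null and 54.2 FPKM in wildtype progenitors, close to the larger entry of day 0. At day 4 the larger entry was 1.33-fold lower in emerin-null progenitors, while the smaller one was 1.58-fold higher. The direction for Lamb1 late in differentiation thus turns with the entry taken.

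Nid1 was lower on day 4 than in proliferating cells in both lines, by 4.47-fold in emerin-null and 5.75-fold in wildtype progenitors, again as a description between tables. The larger entry of the Nid2 locus was lower by 7.98-fold and 10.6-fold. The smaller entry of that locus, listed from day 0, did not show this decline, so the course of Nid2 itself cannot be told. Nid1 was at 35.1, 34.3, 16.2, 10.1, 7.51 and 7.85 FPKM in emerin-null and 31.6, 27.8, 19.2, 9.40, 5.99 and 5.50 FPKM in wildtype progenitors, in order from proliferating cells to day 4. Emerin-null values were higher at 5 of 6 stages, the exception being day 1, and the gap at day 4 was 1.42-fold. At day 0 Nid1 was assembled as a pair of fragments, and the other one was at 33.3 FPKM in emerin-null and 28.4 FPKM in wildtype progenitors.

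The larger entry of the Nid2 locus was the one tested member entry below wildtype by more than 1.5-fold at any stage. It was at 101, 46.6, 63.0, 32.3, 14.4 and 12.7 FPKM in emerin-null and 131, 95.9, 89.9, 37.3, 16.9 and 12.4 FPKM in wildtype progenitors, in order from proliferating cells to day 4. The emerin-null level was 2.05-fold lower at day 0 and 1.43-fold lower at day 1, and within 1.02-fold of wildtype at day 4. The smaller entry of the locus, present from day 0, was at 5.63, 5.59, 7.17, 4.14 and 8.19 FPKM in emerin-null and 7.66, 7.02, 8.16, 4.15 and 7.58 FPKM in wildtype progenitors, a ratio of 0.739 at day 0 and 1.08 at day 4. This entry did not show the decline of the larger one between day 0 and day 4. 2700060E02Rik also had an entry of its own at days 3 and 4, at 94.7 and 110 FPKM in emerin-null and 93.6 and 102 FPKM in wildtype progenitors, the same days on which the larger joint entry was lowest. How much of the larger entry at the earlier stages came from this neighbour was not tested.

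**Figure D2:**
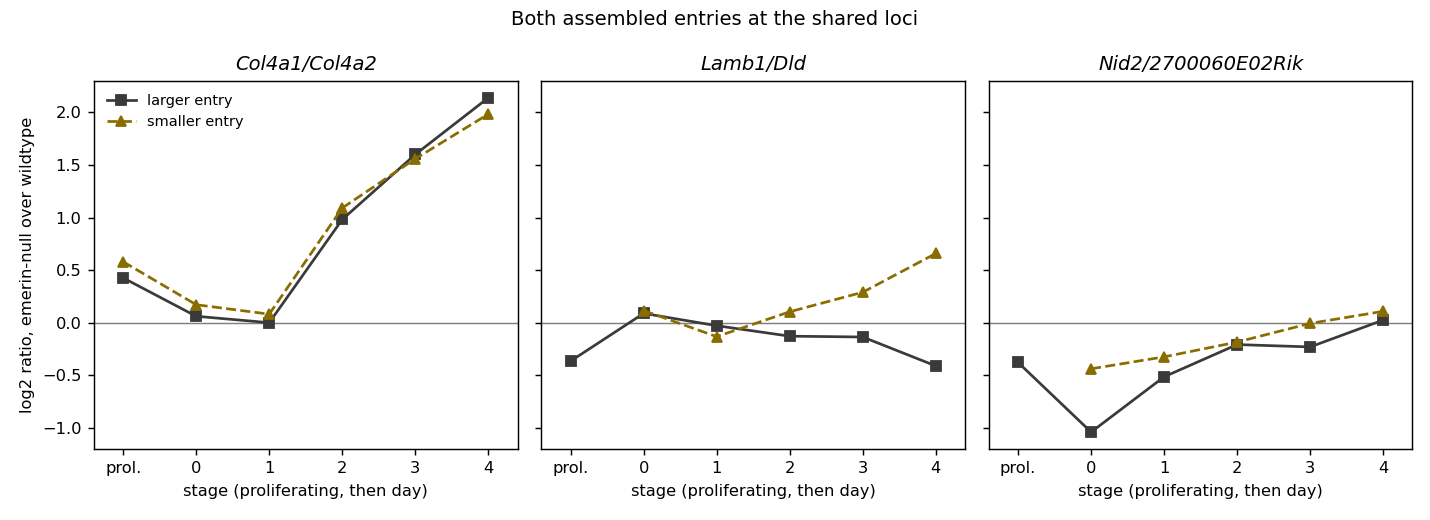
Log2 ratio of emerin-null over wildtype FPKM, 0.1 added to both (y axis), by stage (x axis) for the larger entry (squares) and the smaller entry (triangles) of the collagen IV, Lamb1 and Nid2 loci. The entries of the collagen IV locus run together to 2.14 and 1.98 at day 4, while those of the Lamb1 locus part to -0.41 and 0.66.

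Ratios between chains of 1 sample do not depend on how that sample was scaled. Lama2 made up 43.9, 35.7, 40.4, 36.2, 45.3 and 32.9% of the summed FPKM of the α chains in emerin-null progenitors and 37.4, 34.1, 44.2, 44.7, 52.1 and 34.6% in wildtype progenitors, in order from proliferating cells to day 4. Lama5 made up most of the rest, 54.5% in emerin-null and 62.0% in wildtype proliferating cells and 59.2% and 61.5% on day 4, and the chosen Lama4 piece at most 11.9% and 6.06%. The Lama2 share was higher in emerin-null cells at 2 of 6 stages, the first 2, and lower at the other 4. These shares take the larger entry of the Lama5 locus on days 0 and 1, where the smaller one was below Lama2 in both lines. Collagen IV over Lamc1 was 3.51, 3.15, 3.10, 2.28, 1.72 and 2.08 in emerin-null and 2.35, 2.28, 2.54, 1.28, 0.740 and 0.671 in wildtype progenitors. In the larger entry of each locus, wildtype cells thus ended with less collagen IV than laminin γ1 transcript per length, and emerin-null cells with more. The smaller Lamc1 entry of days 3 and 4 was not added. Nid1 over the larger Nid2 entry was higher in emerin-null cells at all 6 stages, with 0.736 in emerin-null and 0.290 in wildtype progenitors at day 0 and 0.619 and 0.442 at day 4. Over the smaller entry the ratio was 6.09 in emerin-null and 3.63 in wildtype progenitors at day 0 and 0.959 and 0.725 at day 4, higher in emerin-null cells at all 5 stages that have it. Nid1 over Lamc1 was 0.449 in emerin-null and 0.451 in wildtype progenitors at day 4. These ratios were chosen with the values known and carry no test.

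Set against all genes, few members passed the fold used for a single stage. Of the distinct features with a mean of at least 1 FPKM, 8 stood for 9 of the members, Col4a1 and Col4a2 counting as 1, and 7 of them had a value in proliferating cells. A feature counted as higher or lower where the log2 ratio, with 0.1 FPKM added to both values, passed 1.5-fold. In proliferating cells 0 members were higher and 0 lower, where 5.2% of all features were higher and 5.51% lower. At day 0, 0 members were higher and 1, Nid2 in its larger entry, lower, where 4.19% of all features were higher and 7.27% lower. At day 1, 0 members passed in either direction, where 5.02% of all features were higher and 5.7% lower. Collagen IV was the 1 entry of 8 that was higher on each of days 2 to 4, where, in that order, 7.56%, 9.4% and 13.6% of all features were higher. None was lower at those stages, where 4.37%, 4.41% and 4.75% of all features were lower. A count of 1 in 8 is near the background.

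**Figure D3:**
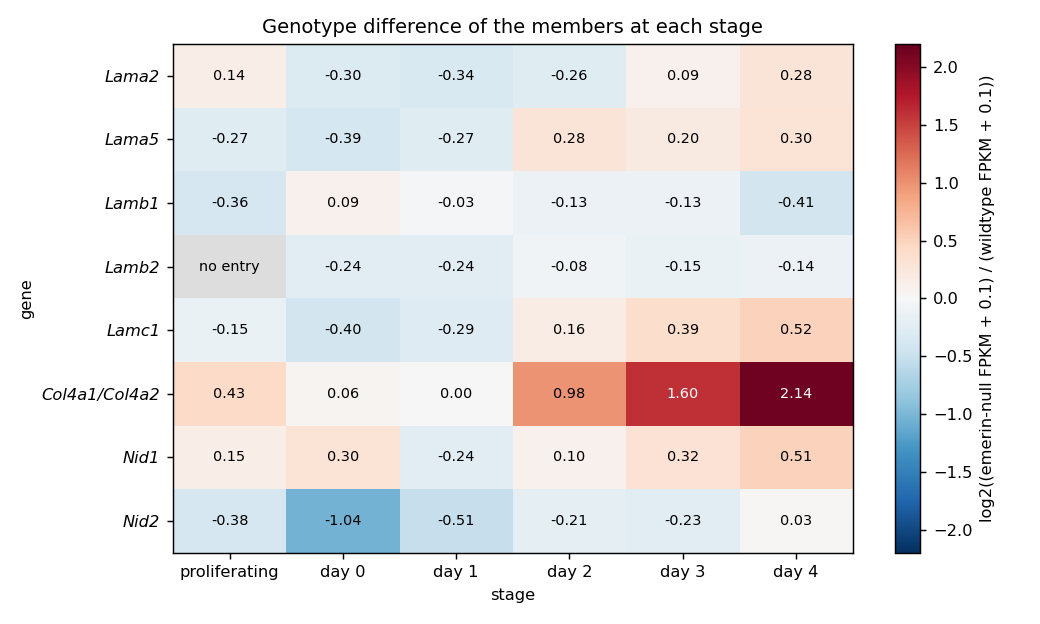
Log2 ratio of emerin-null over wildtype FPKM, 0.1 added to both (colour and printed value), for the 8 tested entries (rows) at the 6 stages (columns). Collagen IV reaches 0.98, 1.60 and 2.14 at days 2, 3 and 4, and Nid2 is lowest at day 0 with -1.04.

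The difference held over the stages was tested with limma on the log2 ratio of each stage, so that each comparison stays within a table, with Benjamini-Hochberg adjustment over 10726 features. The p-value weighs the mean ratio against its variation between stages and does not speak for replicate cultures. Lamb2 was the 1 member entry that passed, with a mean log2 ratio of -0.17 (SE 0.040, adjusted p = 0.0373, lower at 5 of 5 stages), where 9.6% of all features were lower and 8.64% higher. The call was lost when day 0, 1, 2, 3 or 4 was left out, with adjusted p between 0.0602 and 0.105. Collagen IV had the largest mean of the tested members, 0.87 (SE 0.30, higher at 6 of 6 stages), and did not pass at an adjusted p of 0.0893, its ratios ranging from 0.0013 to 2.14. Nid2 had a mean of -0.39 (SE 0.13, adjusted p = 0.0796, lower at 5 of 6 stages), or -0.20 (adjusted p = 0.128) with the smaller entries, and Nid1 a mean of 0.19 (SE 0.092, adjusted p = 0.191). Lamb1 had a mean of -0.16 (SE 0.072, adjusted p = 0.159), Lama2 of -0.066 (SE 0.098), Lama5 of -0.027 (SE 0.11) and Lamc1 of 0.037 (SE 0.13), the last 3 with adjusted p between 0.664 and 0.884. The median of the 8 means was -0.046, beside -0.0098 over all features.

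Because collagen IV and Lamc1 parted between the genotypes as days went by, the slope of the log2 ratio over days 0 to 4 was also fitted with limma across all features. This test was chosen after the values had been seen. Collagen IV had a slope of 0.58 per day (SE 0.068, adjusted p = 0.0357) and Lamc1 a slope of 0.25 per day (SE 0.031, adjusted p = 0.0357). These were 2 of the 8 entries, where 2.93% of all features passed upwards and 0.186% downwards. Slopes were positive for 7 of the 8 entries, beside 61.6% of all features, with a median of 0.17 per day beside 0.026 over all features. Nid2 (0.24 per day, adjusted p = 0.0608), Lama5 (0.19, adjusted p = 0.102), Lama2 (0.16, adjusted p = 0.0993), Nid1 (0.097, adjusted p = 0.441) and Lamb2 (0.029, adjusted p = 0.501) did not pass. Nid2 did so where all entries of a gene were summed (0.24 per day, adjusted p = 0.0449). Lamb1 had a slope of -0.11 per day (adjusted p = 0.0884) in its larger entry and 0.15 per day (adjusted p = 0.174) when the smaller entries were taken. With each of days 2, 3 and 4 left out in turn, the collagen IV call was lost, at adjusted p of 0.0742, 0.114 and 0.211, with slopes of 0.58, 0.57 and 0.56 per day. Without day 0 and without day 1 it stayed, at 0.70 and 0.52 per day. The Lamc1 call was lost without any single day (0.24 to 0.28 per day, adjusted p from 0.0725 to 0.198) and with upper-quartile scaling (0.22 per day, adjusted p = 0.0546).

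No member passed a test of growth medium (proliferating cells and day 0) against differentiation medium (days 1 to 4). Over all features limma called 13 with a higher ratio in growth medium, 0.121%, and 24 with a lower one, 0.224%, and 1363 had an unadjusted p under 0.05. Among the members that was 1, Lama5, with a mean log2 ratio of -0.33 in growth and 0.13 in differentiation medium (difference -0.46, SE 0.18, adjusted p = 0.381). For collagen IV the means were 0.24 in growth and 1.18 in differentiation medium (difference -0.94, SE 0.57, adjusted p = 0.503).

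Of 23 other basement membrane genes, 14 were tested, 4 were higher in emerin-null progenitors over the stages, 0 were lower and 10 did not pass, with a median log2 ratio of 0.17, where 8.64% of all features were higher and 9.6% lower. Pxdn, the peroxidasin that cross-links collagen IV, had the largest mean of these (log2 0.92, SE 0.19, adjusted p = 0.0201), with 20.8, 17.9, 17.8, 10.7, 7.21 and 7.31 FPKM in emerin-null and 14.3, 12.8, 12.1, 6.28, 2.71 and 2.02 FPKM in wildtype progenitors. It was higher in emerin-null cells at 6 of 6 stages, and its slope over days 0 to 4 also passed (0.35 per day, adjusted p = 0.0445), but with a day left out it did so in only 1 of 5 cases (adjusted p from 0.0444 to 0.250). In the other lists the slope passed upwards for 2 of 15 receptors, 3 of 21 processing genes and 1 of 12 proteases and inhibitors, and for none downwards. Over all features 2.93% passed upwards and 0.186% downwards. With a day left out, 1 of these receptors kept the call in 2 of 5 cases, and the rest of these genes in 0 of 5. Sparc, a glycoprotein that binds collagen IV, was at 646, 593, 616, 708, 626 and 618 FPKM in emerin-null and 478, 465, 539, 481, 317 and 247 FPKM in wildtype progenitors (mean log2 ratio 0.64, SE 0.15, adjusted p = 0.0322). Ntn4, a laminin-related netrin whose entry also names the predicted gene Gm15915, had a mean of 0.53 (SE 0.087, adjusted p = 0.00938). Fbln1, a fibulin that binds laminin and nidogen, had a mean of 0.45 (SE 0.12, adjusted p = 0.0498). All 4 were higher at 6 of 6 stages.

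**Figure D4:**
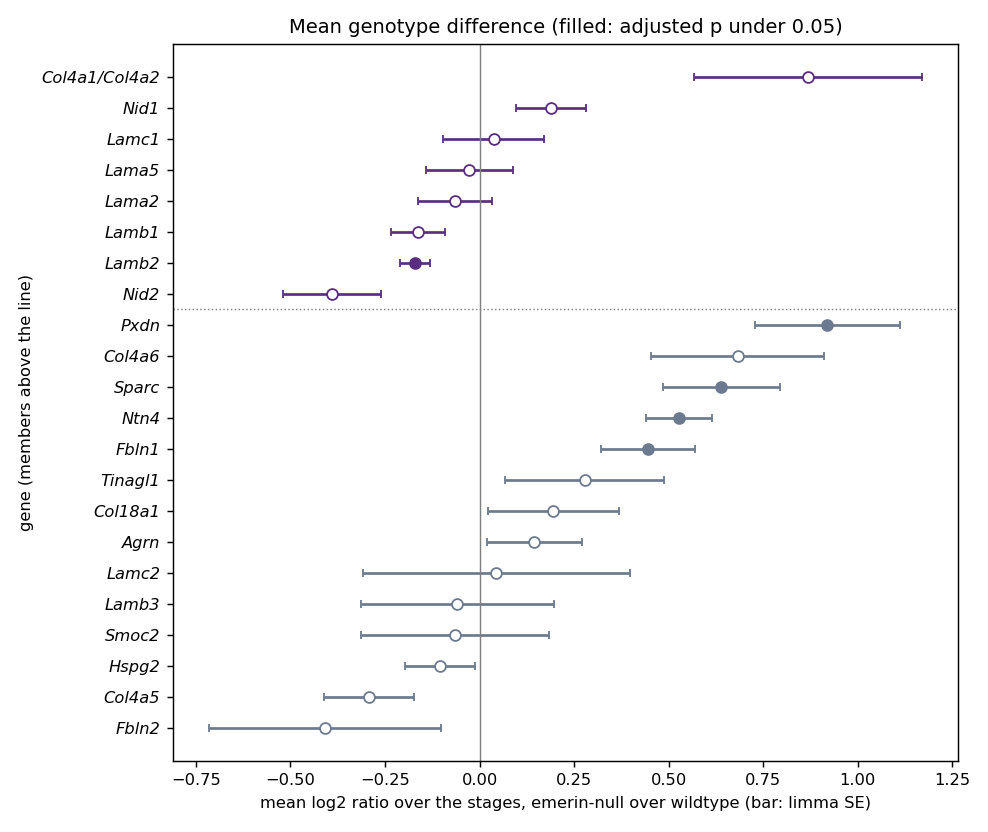
Mean log2 ratio over the stages, emerin-null over wildtype, with its limma SE (x axis) for the 8 member entries above the dotted line and the 14 other basement membrane genes below it (y axis); filled points have an adjusted p under 0.05. Lamb2 is the filled member at -0.17, and Pxdn, Sparc, Ntn4 and Fbln1 are filled between 0.45 and 0.92.

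Of 16 receptors 15 were tested, 3 were higher, 2 lower and 10 did not pass, with a median log2 ratio of -0.046. Over all features the same 8.64% were higher and 9.6% lower. Among the 10 is the integrin chain Itga3, listed on day 4 at 0 FPKM in emerin-null and 2.58e+07 FPKM in wildtype progenitors. That value sets its mean (-4.11, SE 4.05), so its result cannot be read as no difference. Itga3 was higher in emerin-null cells at the other 5 stages. Bcam, a laminin α5 receptor, was at 2.55, 1.28, 10.2, 11.8, 20.3 and 38.4 FPKM in emerin-null and 6.95, 4.78, 22.7, 39.4, 53.8 and 61.9 FPKM in wildtype progenitors (mean log2 ratio -1.37, SE 0.15, adjusted p = 0.00192, lower at 6 of 6 stages). Mcam, a cell adhesion molecule that binds laminin α4, was at 6.10, 5.47, 20.4, 6.46, 4.71 and 4.46 FPKM in emerin-null and 2.23, 4.03, 7.88, 2.41, 2.08 and 2.03 FPKM in wildtype progenitors (mean 1.14, SE 0.13, adjusted p = 0.00281). The collagen receptors Ddr2 (0.68, SE 0.14, adjusted p = 0.0214) and Ddr1 (0.23, SE 0.054, adjusted p = 0.0278) were higher and the syndecan Sdc4 (-0.34, SE 0.080, adjusted p = 0.0309) was lower.

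Of 28 genes for collagen and dystroglycan processing 21 were tested, 2 were higher, 1 lower and 18 did not pass, with a median of 0.096, shares near or below those over all features (8.64% higher, 9.6% lower). Sec24d, a coat subunit needed for procollagen export, had a mean of 0.42 (SE 0.090, adjusted p = 0.0219) and P4ha2, a collagen prolyl hydroxylase subunit, a mean of -0.34 (SE 0.070, adjusted p = 0.0189). Of 16 proteases and inhibitors 12 were tested, 2 were higher, 1 lower and 9 did not pass, with a median of -0.059. The shares over all features were again 8.64% higher and 9.6% lower. Mmp2, a gelatinase that also cleaves collagen IV, was at 18.0, 20.8, 36.8, 22.4, 21.2 and 19.9 FPKM in emerin-null and 8.04, 11.3, 22.3, 11.6, 10.0 and 8.61 FPKM in wildtype progenitors (mean 0.99, SE 0.069, adjusted p = 0.000392, higher at 6 of 6 stages). Plat, the tissue plasminogen activator, was higher (0.79, SE 0.16, adjusted p = 0.0200) and the cathepsin Ctsb lower (-0.35, SE 0.070, adjusted p = 0.0174). The loci of Ddr2, Mmp2 and Ctsb were shared with another gene in at least 1 table. With each stage left out in turn, Ntn4, Bcam, Mcam and Mmp2 passed in 6 of 6 cases. The other genes named from these lists lost the call in at least 1, among them Fbln1 in all 6 (adjusted p from 0.0557 to 0.134) and Sparc in 3 of 6 (from 0.0406 to 0.0920).

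The mean profile of the members over the 12 samples was taken with each gene centred on its own mean log2 level, the collagen IV values entering for both Col4a1 and Col4a2. Not all members followed it. Lamb1 correlated with the profile at Pearson r = -0.915, Lama4 at -0.161 and Lamb2, over 10 samples, at 0.405. The others lay between 0.766 and 0.954. From day 0 on, the Lamb1 values are the larger entry of the locus shared with Dld, so which gene its correlation describes cannot be told. The smaller entry went from 26.7 FPKM on day 0 to 10.6 FPKM on day 4 in emerin-null progenitors. In wildtype progenitors it went from 24.6 to 6.67 FPKM, and its correlation with the profile was not computed. Lamb2 and Nid2 also enter from loci shared with another gene. Among 4385 other genes alone at their locus with a mean of at least 5 FPKM, the 5 most alike were Fbn1 (Pearson r = 0.967), Fgfr4 (0.962), Sgce (0.949), Prdx4 (0.948) and Pmp22 (0.947). Fbn1 encodes the microfibril protein fibrillin-1, Fgfr4 a receptor of muscle progenitors, and Sgce a sarcoglycan of the dystrophin complex. Fbn1 was at 31.2, 19.5, 13.9, 14.0, 11.3 and 12.2 FPKM in emerin-null and 24.2, 22.0, 16.9, 9.43, 5.25 and 4.16 FPKM in wildtype progenitors. Like collagen IV it was higher in emerin-null cells in proliferating cells and at days 2 to 4. The 12 points share 2 lines and 6 tables, so these values describe likeness in these samples alone.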

How the data were processed

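The authors sequenced RNA on an Illumina HiScan-SQ. Per the labels and the study's methods, they ran FastQC on the reads, TopHat against the mouse build mm10, and then Cuffdiff. For none of these was a version given in the sources used here. The deposited tables, 1 per stage, give 1 FPKM value per genotype and assembled gene, made by the authors from pooled plates; the unit was read from the Cuffdiff layout. Their columns of log2 fold, test statistic, p, q and call hold the authors' own comparison and were not used, nor was a second sheet of called entries. Without counts or single plates no count model could be fitted and the depth of each sample is unknown.

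Symbols turned into dates were left out. Features needed a usable entry at 5 or 6 stages and a mean of at least 1 FPKM, and symbols with the same values were kept once, which left 10726. The log2 ratio was log2 of (emerin-null FPKM + 0.1) over (wildtype FPKM + 0.1), a scale that understates changes of low genes. limma 3.58.1 (R 4.3.3) tested its mean over the stages, the medium difference and the slope over days 0 to 4, with a mean-level trend and Benjamini-Hochberg adjustment at 0.05 over all features. Both genotypes of a stage stay within 1 table. The code was tested on simulated data. Lamb2 was fitted on 5 stages.

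The members and lists were chosen with earlier results of these data known. All 10 members were named. From the 4 other lists, genes past the adjusted p, or more than 2-fold apart in 1 direction at 4 or more stages, could be named, at most 6 per list, by the size of the mean. Items withheld for evaluation are not reported here. Genes most like the members were ranked by Pearson correlation without a p. Coordinates are from GENCODE M21 (GRCm38), motif windows from RefSeq (GRCm38.p6, 250 bases before to 50 after a start). Alternatives were other pseudocounts, filters, entries, scalings, fold thresholds and variance priors, each stage left out in turn, and an exact sign-flip test.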

Additional observations from a re-analysis of the deposited data

Results flagged for a closer look

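Collagen IV (Col4a1 and Col4a2, 1 joint measurement) was singled out because its genotype difference changed over days 0 to 4 by a test of that change, with a slope of the log2 ratio of 0.58 per day (limma adjusted p = 0.0357 over all features). Its log2 ratio was 0.06 on day 0 and 2.14 on day 4. Lamc1 was singled out in the same way, with a slope of 0.25 per day (adjusted p = 0.0357) and log2 ratios of -0.40 at day 0 and 0.52 at day 4. Both calls depend on single days. Collagen IV lost it without day 2, 3 or 4 (adjusted p = 0.0742, 0.114 and 0.211) and Lamc1 without any one day (0.0725 to 0.198). The test was chosen because this pattern had been seen in the same values, and each point is a single pair of samples.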

How the results depend on the processing

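The tests pair the genotypes by stage, and no replicate block was fitted because the labels carry no replicate numbers. Counts of members past the fold at a stage moved with the threshold. Past a log2 ratio of 0.32 in place of 0.58, 1 was higher and 2 lower in proliferating cells, and 3 were lower on day 0. On day 1, 2 were lower, on day 3, 2 were higher, and day 4 had 3 higher with 1 lower. The share of all features past this looser threshold is not given here, so these counts cannot be set against a background. Past 2-fold, 0 were higher at day 2. With only loci of 1 gene, collagen IV, Lama5, Lamb1, Lamb2 and Nid2 left the test, so 0 were lower at day 0 and over the stages, 0 were higher at days 2, 3 and 4, and 1 had a rising slope. With the smaller entry at a shared locus, added after the data were seen, 0 were lower at day 0 and 2 higher at day 4 (collagen IV and Lamb1). Members lower over the stages were 0 without the prior trend (Lamb2 adjusted p = 0.0537) and 0 to 1 with a stage left out. The exact two-sided sign-flip permutation test gave p = 0.03125 for collagen IV, the smallest that 6 stages allow, and p = 0.0625 for Lamb2, the smallest for 5. Members with a rising slope were 0 to 1 with a day left out and 1 with upper-quartile scaling, and 3 with summed entries, where Nid2 passed as well (adjusted p = 0.0449).

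Over all features, calls over the stages ranged from 471 to 808 higher and 519 to 970 lower with a stage left out, against 927 and 1030, and 533 were higher with a mean of at least 5 FPKM. Calls by medium ranged from 5 to 28 and 2 to 113 with a stage left out, against 13 higher and 24 lower. They were 6 and 12 with summed entries, and the lower ones 14 with only loci of 1 gene and 12 with smaller entries. Slope calls, 314 up and 20 down, ranged from 0 to 233 and 0 to 13 with a day left out. Those up were 208 with median-centred ratios and 134 with upper-quartile scaling. Those down were 32 without FPKM over 10000, 35 with only loci of 1 gene, 13 with pseudocount 1 and 42 with summed entries.

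Estimates that were not called and turned sign over the stages were Lama5 (-0.092 to 0.047) and Lamc1 (-0.059 to 0.13) with a stage left out, Lamc1 with summed entries (-0.024), and Lamb1 with smaller entries (0.11). By medium, Lama2 (-0.24 to 0.20), Lamb1 (-0.19 to 0.26) and Nid1 (-0.084 to 0.16) turned with a stage left out. Lama2 was 0.0028 with median-centred ratios and 0.016 with upper-quartile scaling, and Lamb1 -0.35 and Lamb2 0.011 with smaller entries. The slope of Lamb1 turned to 0.15 with smaller entries. Where not stated, the cause was not tested.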
